A study of Homo sapiens with 8 samples.

Results

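Gene expression was compared between untreated parental Panc10.05 cells and parental cells exposed to 2 µM indisulam for 18 h. Panc10.05 is a line grown from a human pancreatic adenocarcinoma, and its parental form had not been adapted to the drug. Of the 8 libraries in the series, 4 belonged to this comparison, 2 per group, chosen by the titles that name parental cells as untreated or on indisulam. The other 4 libraries came from a derivative of the same line with acquired resistance, untreated or on indisulam, and served only to place the parental change beside that of the adapted cells. Per the study's methods, treated resistant cells never left 2 µM indisulam, and untreated ones had been off it for 1 week, so their contrast is not an 18 h exposure. All libraries held polyadenylated, stranded RNA, and the measured quantity was the number of reads per gene. The 2 libraries of a group were technical replicates in the study's words. The p-values below thus measure the spread between such libraries and not between independent cultures. This spread was estimated over all 8 libraries, so the resistant ones enter the parental p-values too. The labels conflict on the cells and on the treatment. Growth and treatment protocols speak of A549, a lung line, with another dose and time, but every title speaks of Panc10.05. The titles were followed for the cells. They give no dose or time, so both were taken from the study's methods for the resistance experiment. Reads in genes numbered 105655653 to 108002436 in the untreated and 77161562 to 80482880 in the treated parental libraries.

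Indisulam is an aryl sulfonamide that acts as a molecular glue. It binds the substrate receptor DCAF15 of a cullin 4 ubiquitin ligase and brings in RBM39, a splicing factor related to U2AF2, which is then ubiquitinated and degraded. RBM39 takes part in recognition of the 3′ splice site and in transcription, and its loss is known for skipped exons and retained introns. Reads were counted here per gene, so no exon was looked at on its own, and a change of a gene's count may be a change of its total, of its stability or of the part of its reads that falls on annotated exons.

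Of 16 markers of pancreatic ductal cells, 12 passed the expression filter. All 16 together summed to 6220 to 6340 CPM (reads of a gene per 1e+06 reads in genes, with library sizes scaled by TMM) in untreated and 6340 to 6440 CPM in treated parental cells. Of the 16, 6 stayed under 1 CPM in all 4 parental libraries, so the sum rests on the other members. CEACAM6, S100P and TFF1 had at most 3, 2 and 11 reads in any library. CLDN18 had no read in any parental library. Of 10 markers of lung alveolar and airway cells, 7 had no read in the 4 parental libraries, among them SFTPB and NKX2-1, and the list summed to at most 4.06 CPM. The lists for acinar, fibroblast, immune and endothelial cells summed to at most 6.0 CPM in parental cells, and PTPRC and CD3E had no read.

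Library-wide measures differed between the treated and untreated libraries. Reads from the mitochondrial genome made up 4.194 and 4.334% of reads in genes in the untreated parental libraries and 2.607 and 2.236% in the treated ones. Reads outside annotated genes made up 6.217 and 6.335% of assignable reads without the drug and 4.824 and 4.939% with it. The number of genes with at least 1 read was 24514 and 24491 against 22822 and 23094. This number depends on depth, for which it was not adjusted, and the treated parental libraries held fewer reads in genes, as given above. In the resistant line the group means of all 3 moved the other way, with 3.003 and 3.452% of mitochondrial reads without the drug and 3.841 and 3.519% on it. Treated parental libraries were nearest to the untreated resistant ones in reads outside genes and in genes detected. These measures are repeated below beside the gene groups that moved with them, and their part in those results was not tested.

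**Figure D1:**
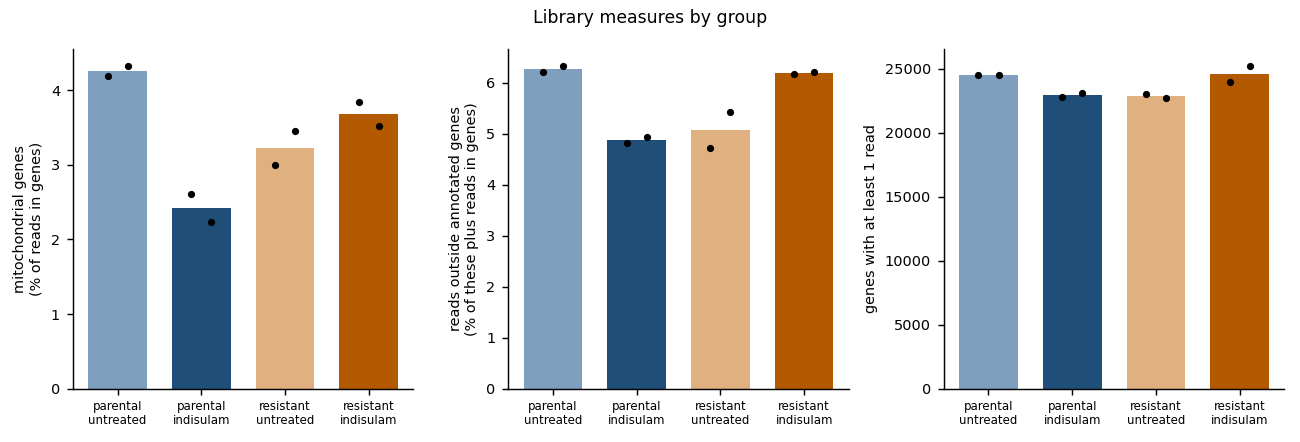
Share of reads from the mitochondrial genome (percent of reads in genes), share of reads outside annotated genes (percent of these plus reads in genes) and number of genes with at least 1 read, for each of the 8 libraries. Points are libraries and bars their means per group. All 3 measures were lower on indisulam in parental cells, and on average higher on indisulam in the resistant line.

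At an adjusted p below 0.05 (edgeR's quasi-likelihood test with Benjamini-Hochberg adjustment over all genes tested, here termed called), 5259 of 16661 genes were higher on indisulam (31.6%) and 4431 were lower (26.6%). Among the 8611 protein-coding genes averaging 10 CPM or over, a closer background for lists of well expressed genes, 51.2% were called higher and 23.9% lower, with a median of 0.09 log2 units. The counts given below for the BCL-2, ATF4, endoplasmic reticulum, glycolysis, TGF-beta and YAP, and transcription machinery lists lie near these shares. With the libraries scaled by their totals alone, 42.0% of calls were higher, against 54.3% with TMM, so small changes were read relative to a median over all genes of 0.014 log2 units. A change of more than 0.5 log2 units, tested against that size with glmTreat, was found for 140 genes that rose (0.84%) and 902 that fell (5.41%). Among those that rose, 66.4% were protein coding and 20.7% were long noncoding RNAs (lncRNAs). Among those that fell, 51.4% were protein coding and 37.5% lncRNAs, whereas lncRNAs were 16.2% of all genes tested. The resistant line is a separate set of libraries with its own controls. Of the 140 genes that rose in parental cells, 115 (82.1%) were called higher on the drug in it too and 3 lower. Of the 902 that fell, 359 (39.8%) were called lower in it and 81 (8.98%) higher, where 25.8% of all genes were called lower and 24.9% higher. A test of the difference between the responses of the lines called 8351 of all genes (50.1%), 70 of the 140 and 724 of the 902. The treated and untreated parental libraries did not overlap for 78.8% of all genes tested, nor for any of the genes named below.

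RBM39 itself, the target of the drug at the protein level, had more transcript on indisulam. Its level was 332 and 337 CPM in untreated and 716 and 731 CPM in treated parental cells, a rise of 2.17-fold (log2 fold change 1.11 ± 0.0287 SE, edgeR adjusted p = 4.9e-18). The gene lies on GRCh38 at chr20:35701347-35742312. In the resistant line the rise was 0.94 log2 units, and the difference between the lines was small but called (edgeR adjusted p = 0.00087). DCAF15, the receptor that the drug occupies, stood at 41.6 and 42.4 CPM without and 41.1 and 39.6 CPM with indisulam. The difference was not called (edgeR adjusted p = 0.18) and changed sign when GC content was corrected for (0.10). It was called lower with library totals alone (-0.13), upper quartile scaling (-0.11) and only the parental libraries (-0.08). The same held when only genes of at least 1 CPM (-0.12) or 10 CPM (-0.15) were fitted. DDB1, the adaptor of the ligase, and DDA1, which stabilises the complex, were called higher by 0.12 and 0.15 log2 units, but the calls were lost without treated library 1 for DDA1 (0.09) and without treated library 2 for DDB1 (0.08). CAND1, the exchange factor for cullin substrate receptors, went from 246 and 249 CPM to 285 and 290 CPM (0.22 ± 0.0275 SE). Among the 24 genes of the target, its ligase and the neddylation and signalosome enzymes, 17 were called higher (70.8%) and 2 lower (8.33%). The list had a median of 0.17 log2 units and a median GC content of 42.3%. Of coding genes of 10 CPM or over with 40 to 45% GC, 63.7% were called higher and 14.7% lower. NAE1, a subunit of the NEDD8-activating enzyme, was the clearest fall of that list, from 94 and 97.6 to 73.9 and 74.1 CPM, while COPS4 of the COP9 signalosome rose by 0.34 log2 units.

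**Figure D2:**
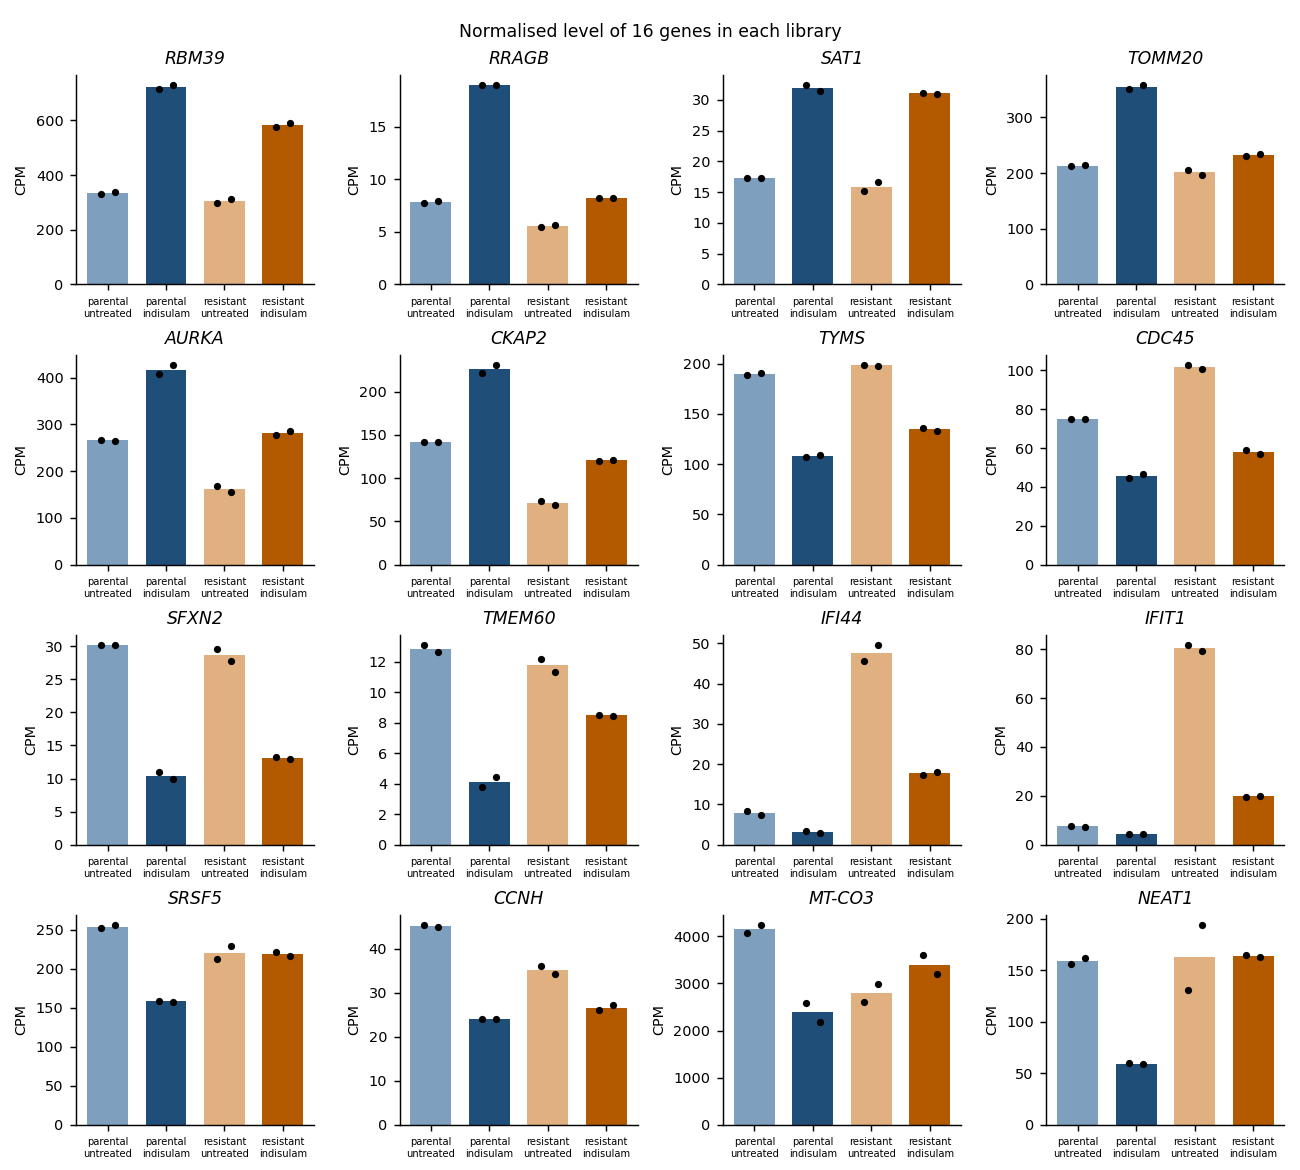
Level (CPM) of 16 genes in each library, with parental cells in blue and the resistant line in orange. Points are libraries and bars are group means, and each panel starts at 0. In every panel the 2 treated parental libraries lie apart from the 2 untreated ones.

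The largest rises among well expressed protein-coding genes reached 2.44-fold. RRAGB encodes a Rag GTPase of the machinery that recruits mTORC1 to lysosomes in response to amino acids. It stood at 7.71 and 7.89 CPM in untreated and at 19 and 19 CPM in treated parental cells (1.29 ± 0.0504 SE, edgeR adjusted p = 3.3e-15), against 0.57 log2 units in the resistant line. SAT1, the acetyltransferase that starts polyamine breakdown, rose from 17.3 and 17.3 to 32.5 and 31.5 CPM, and by 0.97 log2 units in the resistant line. ALPK1, a kinase that senses bacterial sugar metabolites, rose by 0.81 log2 units, EYA3, a phosphatase and transcriptional coactivator, by 0.79, and GALK2, a sugar kinase, by 0.77. TOMM20, a receptor for protein import into mitochondria, rose from 212 and 215 to 351 and 359 CPM, and ALDH1A3, a retinaldehyde dehydrogenase, from 31.4 and 31.6 to 57.9 and 50 CPM. ALDH1A3 moved the other way in the resistant line (-0.50 log2 units), and the difference between the lines was called (edgeR adjusted p = 2.6e-07). The zinc finger genes ZNF512, ZNF850 and ZNF227 rose by 0.84, 0.78 and 0.74 log2 units. NPAS2, a clock transcription factor, met the rule through its level in the resistant line alone. It had 43 and 30 reads in untreated and 45 and 54 reads in treated parental libraries.

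The largest falls were deeper. TMEM60, a small membrane protein, dropped from 13.1 and 12.6 to 3.8 and 4.42 CPM (-1.64 ± 0.0692 SE, edgeR adjusted p = 1.1e-14). Its log2 fold change in the resistant line was smaller, -0.48. SFXN2, a mitochondrial carrier of the sideroflexin family, fell from 30.2 and 30.2 to 11 and 9.9 CPM, and by 1.13 log2 units in the resistant line. ABCC3, an exporter of conjugated bile acids and drugs, fell from 37 and 36.6 to 14.9 and 14.3 CPM, and RAMP1, a partner of the calcitonin receptor-like receptor, from 22.8 and 22.9 to 9.68 and 9.03 CPM. Both also fell in the resistant line, by 1.67 and 1.04 log2 units. IFI44, described below, was among the 12 largest falls too. Like NPAS2 it met the level limit of that rule only through the resistant libraries, with means of 7.86 and 3.24 CPM in untreated and treated parental cells.

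Other large falls in parental cells were smaller or nearly absent in the resistant line. The 2 untreated resistant libraries differed for PABPC1L (62.4 and 88.1 CPM) and ATG16L2 (35.5 and 46.4 CPM). They also differed for MICALL2 (14.6 and 19.3 CPM) and PILRB (9.76 and 14.2 CPM), so the resistant changes of these genes are less certain. The spread of a gene was estimated over all 8 libraries, so these differences also enter the parental SE and p-values of these genes. PABPC1L, a relative of the cytoplasmic poly(A)-binding protein, went from 53 and 54.3 to 15.9 and 15.7 CPM (-1.76 ± 0.203 SE, edgeR adjusted p = 0.0019), against -0.53 log2 units in the resistant line. ATG16L2, a paralogue of the autophagy factor ATG16L1, went from 51.8 and 51.2 to 19.4 and 18.7 CPM, against a log2 fold change of 0.01 in the resistant line (edgeR adjusted p of the difference = 0.0043). TMEM80, ACBD4 and MICALL2 showed log2 fold changes of -1.31, -1.31 and -1.36 in parental and -0.25, -0.04 and -0.08 in resistant cells. PILRB fell from 20.5 and 20.2 to 7.87 and 8.04 CPM and overlaps PILRA on the same strand, so its reads are less certain. ZNF251, a zinc finger gene, fell from 11.4 and 11.5 to 3.88 and 3.76 CPM. It also fell in the resistant line, by 0.90 log2 units (edgeR adjusted p = 4e-11).

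**Figure D3:**
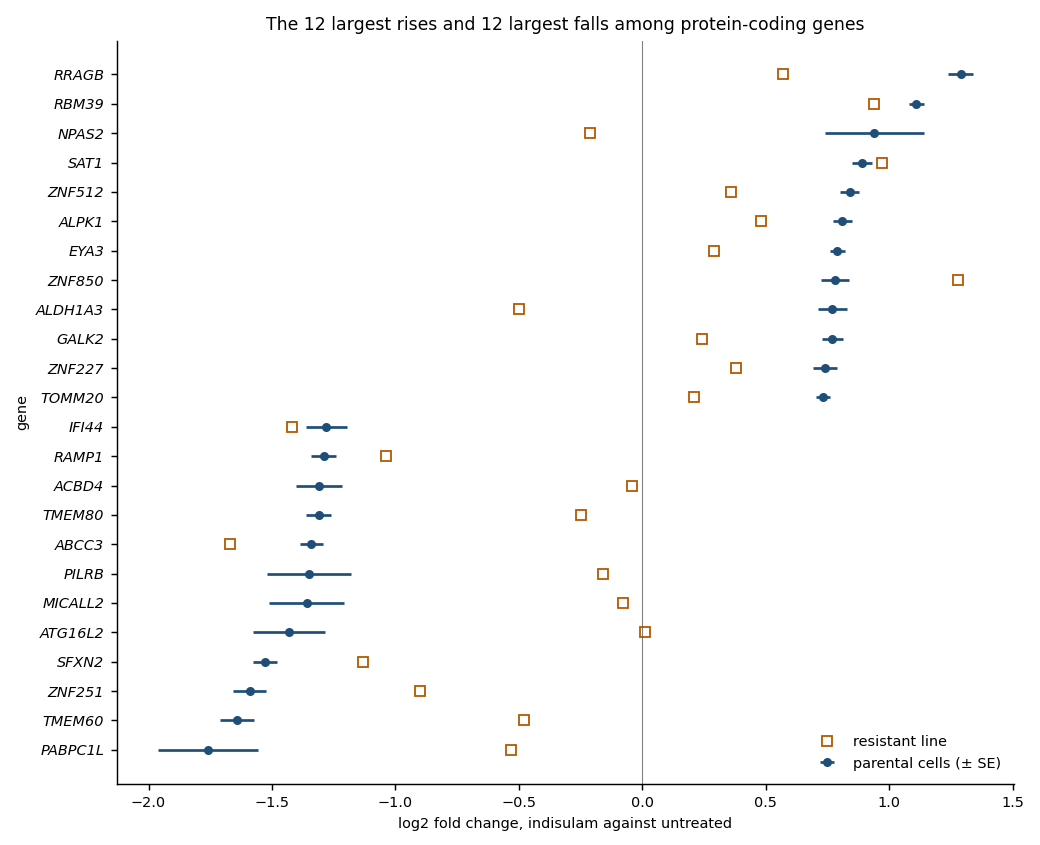
Log2 fold change on indisulam of the 12 largest rises and 12 largest falls among protein-coding genes, with the parental value as a filled circle (bars are the SE) and the resistant line as an open square. The falls reach further than the rises. Among the falls, the resistant value lies far from the parental one for PABPC1L, TMEM60, ATG16L2, MICALL2, PILRB, ACBD4 and TMEM80. NPAS2 and IFI44 met the level limit of the rule only through the resistant libraries.

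Most genes of the splicing machinery had more transcript on indisulam in parental cells. Of 57 core spliceosome genes, 46 were called higher (80.7%) and 2 lower (3.51%). For coding genes of 10 CPM or over with 45 to 50% GC these shares were 57.6 and 19.7%. The spliceosome list had a median of 0.21 log2 units, and none of its members changed by more than 0.5 log2 units in the glmTreat test. The same list had a median of -0.04 in the resistant line. SMNDC1, a spliceosome assembly factor with a tudor domain, went from 64.9 and 67.2 to 96 and 95.6 CPM. CDC5L, a core member of the Prp19 complex, went from 128 and 131 to 182 and 186 CPM, and CRNKL1, a scaffold of the catalytic spliceosome, rose by 0.49 log2 units. Among RBM39's relatives and the factors that recognise the 3′ splice site, 18 of 24 were called higher and 4 lower, with a median of 0.20. SF1, which binds the branch point, rose from 423 and 425 to 608 and 585 CPM. U2AF1 was called lower but stood at only 3.7 and 3.87 CPM without the drug, and the call was lost without untreated library 2 (-0.45). Its locus has a near-identical copy in GRCh38, so its counts are uncertain.

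SR and hnRNP regulators, which bind exons and introns and steer splice site choice, included both directions. Of 67 tested, 43 were called higher and 10 lower (64.2 and 14.9%, median 0.14). The list had a median GC content of 41.9%. Coding genes of 10 CPM or over with 40 to 45% GC had nearly the same shares, 63.7 and 14.7%. CLK2, a kinase of SR proteins, fell from 42.9 and 41 to 23.1 and 22.2 CPM (-0.89 ± 0.072 SE, edgeR adjusted p = 6.9e-06). SRSF5, an SR protein, fell from 252 and 256 to 159 and 157 CPM (-0.68 ± 0.0322 SE, edgeR adjusted p = 1.3e-13), while its log2 fold change in the resistant line was -0.01 and the difference was called (edgeR adjusted p = 1.1e-10). HNRNPLL, a regulator of exon exclusion, rose from 33 and 32.5 to 52.7 and 54.3 CPM.

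Downstream of splicing the pattern was mixed. Of 21 factors of nonsense-mediated decay, which removes transcripts with early stop codons, 17 were called higher and 3 lower (median 0.19, resistant -0.04). These are 81.0 and 14.3%, against 63.7 and 14.7% of coding genes of 10 CPM or over with 40 to 45% GC. XRN1, the exonuclease that degrades the cleaved transcripts, rose by 0.42 and DHX34 fell by 0.35 log2 units. SMG1, the kinase that phosphorylates UPF1, was called higher by 0.36, a call that was lost with library totals alone (0.29), with a GC correction (0.29) and without untreated library 1 (0.33) or 2 (0.39), and pseudogene copies make its reads uncertain. Among genes of mRNA 3′ end formation, m6A methylation and export, 18 of 45 were called higher and as many lower. DDX39B, a helicase of mRNA export, fell from 147 and 154 to 75.8 and 72.9 CPM, and MAT2A, which makes the methyl donor, from 364 and 371 to 254 and 240 CPM. PABPN1, the nuclear poly(A)-binding protein, fell by 0.62 log2 units and shares exons with a readthrough gene, so part of its reads may not have been assigned.

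Host genes of small nucleolar RNAs, many of which are spliced noncoding transcripts cleared by nonsense-mediated decay, were called lower somewhat more often than higher. Of 27 tested, 12 were called lower (44.4%) and 9 higher (33.3%). Among all lncRNAs of 10 CPM or over, 49.6% were called lower and 22.1% higher. At 1 to 10 CPM these shares were 48.0 and 13.0%. The list was thus called lower no more often than lncRNAs of these levels, the biotype of the SNHG genes that follow. SNHG4 fell from 84.3 and 84.8 to 34.7 and 33.7 CPM, SNHG3 from 53.7 and 54.5 to 35.4 and 33.6, SNHG12 from 20.3 and 21.8 to 13 and 13.4 and SNHG19 from 4.85 and 4.76 to 2.63 and 2.4 CPM. CEP295NL rose by 1.15 log2 units, but it lies inside TIMP2 on the same strand and its reads cannot be separated with certainty. SNHG3 overlaps RCC1 on the same strand.

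Mitosis genes were more often called higher than lower, and DNA replication genes more often lower than higher. Of 81 mitosis and spindle genes, 52 were called higher (64.2%) and 17 lower (21.0%). The median was 0.18 log2 units in parental and 0.37 in resistant cells. The list had a median GC content of 43.1%. Coding genes of 10 CPM or over with 40 to 45% GC were called higher in 63.7% and lower in 14.7%, so the parental share called higher lies near that of such genes. AURKA, a kinase of centrosome maturation and spindle assembly, rose from 267 and 265 to 407 and 428 CPM (0.65 ± 0.0339 SE, edgeR adjusted p = 5.4e-12). CKAP2, a spindle-associated protein, rose from 142 and 142 to 221 and 231 CPM, and KIF18A, a kinesin that dampens chromosome movement, from 76.1 and 76.3 to 110 and 119 CPM. These 3 also rose in the resistant line, by 0.80, 0.75 and 0.56 log2 units. CENPK, a kinetochore protein, fell from 46.2 and 47.9 to 25.3 and 26.5 CPM, and MYBL2, a transcription factor of the cell cycle, from 108 and 110 to 72.9 and 73.8 CPM with a resistant log2 fold change of 0.02.

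Of 59 genes of replication and nucleotide supply, 29 were called lower and 14 higher (median -0.08, resistant -0.33). These are 49.2 and 23.7%, against 23.9 and 51.2% of coding genes of 10 CPM or over. TYMS, thymidylate synthase, fell from 189 and 191 to 107 and 109 CPM (-0.81 ± 0.028 SE, edgeR adjusted p = 7.9e-16). CDC45, part of the replicative helicase, fell from 75 and 75.2 to 44.8 and 46.9 CPM, and POLE2, a subunit of DNA polymerase epsilon, from 29 and 30.1 to 19 and 18.4 CPM. Their resistant log2 fold changes were -0.56, -0.82 and -0.66. Among DNA repair genes 25 of 62 were called lower and 17 higher. FAN1, a nuclease of crosslink repair, fell by 0.66 log2 units, FANCG by 0.70 from 3.94 and 4.43 CPM, and DMC1, at 69 and 60 against 16 and 28 reads, was also called lower. In the G1-S group, CKS2, a subunit of cyclin-dependent kinases, rose from 156 and 148 to 227 and 239 CPM, CDKN1B, a kinase inhibitor, rose by 0.29, and RBL1, a pocket protein, fell by 0.46 log2 units. Of its 29 members, 11 were called higher and 6 lower. The medians of the repair and G1-S lists, 0.02 and 0.06, changed sign with library totals alone.

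Promoter sequences of RefSeq on GRCh38.p14, from 250 bases before to 50 bases after each gene's start, were searched on both strands for motifs tied to these pathways. The CHR element (TTTGAA), known from genes that peak in mitosis, was in 46 of 69 mitosis genes with a promoter sequence (66.7%), against 18.2% of all 27305 genes. It was in 29 of 43 members called higher and 9 of 15 called lower. The CCAAT box was in 75.4% of the same genes, against 39.7% of all. The E2F forms TTTCCCGC and TTTGGCGC were each in 12 of 51 replication genes (23.5%), against 1.98 and 0.795% of all genes. The lists were made from known members of each pathway, so these shares describe the lists and not the drug's effect. KIF18A and TYMS, 1 gene that rose and 1 that fell, show the elements, each in 30 bases that lie before the start, with the CHR element and the E2F site (here on the opposite strand) in capitals, at chr11:28108157-28108186 (minus strand) and chr18:657603-657632 (plus strand).
KIF18A: gctgaggaaagtggcttgggTTTGAAtatt
TYMS: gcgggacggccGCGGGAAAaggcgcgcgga

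Interferon-stimulated genes, an antiviral programme, were more often called lower than higher. Of 55 tested, 29 were called lower (52.7%) and 8 higher (14.5%), and 9 fell by more than 0.5 log2 units (16.4%). Coding genes of low level also leaned lower. At a mean of 1 to 10 CPM over the 8 libraries, 33.5% were called lower and 19.2% higher, and 7.66% fell by more than 0.5. Under 1 CPM these shares were 20.3, 5.04 and 6.18%. The part of level in the interferon list was not tested. The median of the interferon list was -0.20 log2 units in parental cells and -1.45 in the resistant line. IFI44 stood at 8.27 and 7.46 CPM in untreated and 3.44 and 3.03 CPM in treated parental cells (-1.28 ± 0.0819 SE, edgeR adjusted p = 5.3e-11), whereas the resistant line went from 45.6 and 49.6 to 17.4 and 18 CPM. IFIT1, which binds foreign RNA ends, went from 7.86 and 7.26 to 4.58 and 4.18 CPM, and in the resistant line from 81.8 and 79.2 to 19.7 and 20 CPM. HERC5, the ligase that attaches ISG15, fell from 2.41 and 2.58 to 1.36 and 1.03 CPM, HERC6 from 5.9 and 5.61 to 3.09 and 3.01 CPM and OASL, an antiviral enzyme homologue, from 9.61 and 9.29 to 6.07 and 5.07 CPM.

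Several members were rare in parental cells at all times. DHX58, a regulator of RNA sensors, had 51 and 57 reads without and 14 and 12 reads with the drug, OAS2 had 67 and 67 against 21 and 30 reads, and RSAD2 had 11 and 11 against 3 and 3 reads. The call of RSAD2 was lost in 9 of 18 alternatives, among them each of the 4 that left out 1 library (log2 fold changes of -1.38 to -1.32). Transcription factors of the interferon response, chosen for mention after their values had been seen, included STAT2 at 38.9 and 39.2 against 24.5 and 23.2 CPM (-0.71 ± 0.0465 SE, edgeR adjusted p = 2.6e-10) and IRF9 at 0.886 and 0.777 against 0.547 and 0.452 CPM (-0.74 ± 0.193 SE, edgeR adjusted p = 0.0022). IRF9 overlaps an unnamed gene on the same strand. MX1, named on the same terms, stood at 0.512 and 0.402 against 0.24 and 0.297 CPM, and its call was lost without treated library 1 (-0.64) or untreated library 1 (-0.58). The core of the interferon response element (GAAANNGAA, either strand) was in 31 of 45 members with a promoter sequence (68.9%), against 9.86% of all genes, and in 16 of 23 members called lower and 4 of 7 called higher, which are too few to compare. The elements of 3 members that fell are shown as 30 bases each, with the core in capitals in the reverse orientation, at chr1:78649759-78649788 (plus strand), chr4:88457036-88457065 (plus strand) and chr10:89392511-89392540 (plus strand).
IFI44: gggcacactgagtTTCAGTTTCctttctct
HERC5: aacattatgtTTCGTTTTCcactggagctg
IFIT1: actttcccctTTCGGTTTCcctaggtttcc

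Targets of NF-kB, the other main inflammatory programme, showed no common direction. Of 33 tested, 6 were called higher and 7 lower (median -0.02, which changed sign with a GC correction). NFKBIZ, an atypical inhibitor of NF-kB, fell from 9.25 and 8.8 to 5.94 and 5.82 CPM and overlaps NXPE3 on the same strand. IL1B had 8 and 3 reads without and 12 and 11 with the drug and CXCL3 49 and 45 against 18 and 26, so both calls rest on few reads. The call of IL1B was lost without untreated library 2, and that of CXCL3 without either untreated library or treated library 1. Among immediate-early genes, which answer growth factors within minutes, 18 of 41 were called higher and 6 lower, with a median of 0.06 that changed sign with library totals alone. NR4A3, a nuclear receptor, rose from 1.33 and 1.24 to 2.55 and 2.21 CPM, FOS from 10.7 and 10.3 to 14.6 and 15 CPM and BTG1 from 42.1 and 41.5 to 54 and 54.2 CPM.

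The 13 protein-coding transcripts of the mitochondrial genome had the lowest median of the 34 lists, -0.77 log2 units, with 12 called lower. MT-CO3, a subunit of cytochrome c oxidase, stood at 4070 and 4240 CPM in untreated and 2590 and 2180 CPM in treated parental cells (-0.80 ± 0.126 SE, edgeR adjusted p = 0.0058). MT-ATP8 and MT-ATP6, subunits of ATP synthase whose reading frames overlap, fell by 0.88 and 0.85 log2 units. MT-ND6, the member encoded on the light strand, stood at 154 and 166 against 134 and 140 CPM and was not called (edgeR adjusted p = 0.16). The resistant median was 0.28, and the difference between the lines was called for all 13. Reads of these transcripts are part of the mitochondrial share of the libraries given above, and whether the share reflects the cells or the libraries was not tested.

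Nuclear genes of the respiratory chain were called higher in 59% and lower in 17.9% of members, not far from the 51.2 and 23.9% of coding genes of 10 CPM or over. Of 78 tested, 46 were called higher and 14 lower (median 0.11, resistant -0.20). NDUFS4, a subunit of complex I, rose from 54.4 and 54.2 to 71.3 and 74.1 CPM, whereas ATP5MC1, the ring subunit of ATP synthase, fell from 60.6 and 61.6 to 38.2 and 39.6 CPM. NDUFA7 was called lower at 47 and 66 against 21 and 20 reads, and the call was lost without untreated library 2 (-0.67).

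Most genes of protein synthesis and turnover were called higher, by small amounts. Of 78 cytosolic ribosomal protein genes, 68 were called higher (87.2%) and 4 lower (5.13%), with a median of 0.15. For coding genes of 10 CPM or over with 45 to 50% GC these shares were 57.6 and 19.7%. RPL5, which also binds MDM2, rose from 1730 and 1700 to 1990 and 2080 CPM (0.25 ± 0.0308 SE). RPS10 fell by 0.76 log2 units, but at 5.66 and 6.27 CPM without the drug it is counted far below RPL5, and it overlaps another gene on the same strand. Of 50 ribosome biogenesis genes, 34 were called higher (68.0%) and 7 lower (14.0%), with a median of 0.13. DDX10, a nucleolar helicase, rose from 72.6 and 73.1 to 97.4 and 99.8 CPM and POLR1E, a subunit of RNA polymerase I, by 0.35 log2 units. NOP2 was called lower at 1.9 and 1.87 against 1.08 and 1.67 CPM and overlaps an unnamed gene on the same strand, and the call was lost without treated library 1 (-0.20) or untreated library 1 (-0.44).

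Of 47 proteasome genes, 32 were called higher and 6 lower (median 0.15). These are 68.1 and 12.8%, against 57.6 and 19.7% of coding genes of 10 CPM or over with 45 to 50% GC. PSMD6, a lid subunit, rose from 62.2 and 61.6 to 79.8 and 79.3 CPM, PSMG4, an assembly chaperone, fell from 28.8 and 28.5 to 19.6 and 17.7 CPM, and PSMA2, which shares exons with a readthrough gene, was counted at 3.06 and 2.96 against 1.69 and 1.73 CPM. In the resistant line the medians of ribosomal proteins, ribosome biogenesis and the proteasome were -0.18, -0.12 and -0.14. For comparison, genes with a mean level of 10 CPM or over had medians of 0.09 in parental and -0.03 in resistant cells.

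Chaperones of the heat shock response, which fold proteins in the cytosol, were called higher in 24 of 33 members and lower in 2 (median 0.20, resistant -0.07). These are 72.7 and 6.06%, against 57.6 and 19.7% of coding genes of 10 CPM or over with 45 to 50% GC. CHORDC1, an HSP90 cochaperone, rose from 128 and 131 to 188 and 192 CPM (0.55 ± 0.0277 SE, edgeR adjusted p = 2.2e-13). HSPA4 rose from 377 and 368 to 476 and 489 CPM, and HSPB8, a small heat shock protein, from 2.16 and 2.56 to 3.43 and 3.36 CPM. The heat shock element (GAANNTTC) was in 15 of 30 members with a promoter sequence, against 8.21% of all genes, and in 13 of 23 called higher. The promoter of CHORDC1 holds 3 matches before the start, of which the 2 that lie in these 30 bases are in capitals, at chr11:90223081-90223110 (minus strand).
CHORDC1: gGAAAATTCgcGAAGGTTCctgaaacgcaa

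Other stress programmes held members in both directions. Of 33 targets of NRF2, the regulator of antioxidant genes, 21 were called higher and 3 lower (median 0.20, resistant -0.11). These are 63.6 and 9.09%, against 47.8 and 26.3% of coding genes of 10 CPM or over with 50 to 55% GC. HMOX1, haem oxygenase, rose from 10.3 and 11.1 to 17.6 and 15.9 CPM and GCLC, the enzyme that limits glutathione synthesis, from 56.9 and 57.1 to 80 and 80.6 CPM, whereas ABCC3 fell as given above. Of 42 genes of the ATF4 response to amino acid shortage and stress, 20 were called higher and 9 lower (median 0.09). SLC3A2, the heavy chain of amino acid exchangers, rose from 201 and 208 to 308 and 303 CPM, and GDF15, a stress cytokine, from 0.877 and 0.767 to 1.2 and 1.16 CPM against a resistant log2 fold change of 1.81, although the parental call was lost without untreated library 2 (0.43). ASNS, asparagine synthetase, was called lower at 1.05 and 1.08 against 0.547 and 0.594 CPM and overlaps another gene on the same strand. Its promoter holds the ATF4 element (TGATGNAA), as did 14 of 36 members (38.9%) against 4.46% of all genes.

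Of 38 genes of the endoplasmic reticulum, 18 were called higher and 11 lower (median 0.07, which changed sign when only genes of at least 10 CPM were fitted). DERL3, of the machinery that exports misfolded proteins, fell from 8.49 and 8.18 to 4.35 and 3.9 CPM, while SEL1L and EDEM3 of the same pathway rose by 0.30 and 0.29 log2 units. Targets of p53 were split, 10 higher and 11 lower of 31, with a median of 0.01 that changed sign under most alternatives. FDXR, a mitochondrial reductase, fell from 5.28 and 5.17 to 3.2 and 2.74 CPM and DDB2, a sensor of UV damage, from 19.8 and 20.7 to 12.3 and 13.9 CPM, while CCNG1 rose from 114 and 114 to 166 and 170 CPM. In the BCL-2 family 9 of 17 were called higher and 5 lower. The death genes BBC3 and BMF were called in opposite directions, at 4.49 and 4 against 3.37 and 3.07 CPM and 2 and 1.76 against 2.56 and 2.14 CPM, and the first call was lost with a GC correction (-0.15) and the second with library totals alone (0.25) and without treated library 1 (0.17) or untreated library 2 (0.23). VDAC2, a channel of the outer mitochondrial membrane, rose by 0.35 log2 units.

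Lysosomal and autophagy genes were called higher in 38 of 54 members and lower in 8 (median 0.18, resistant 0.07). These are 70.4 and 14.8%, against 57.6 and 19.7% of coding genes of 10 CPM or over with 45 to 50% GC. GABARAPL1, which binds autophagosome membranes, rose from 7.66 and 7.35 to 11.4 and 11.5 CPM (0.61 ± 0.0588 SE, edgeR adjusted p = 7.1e-09). Of 38 genes of cholesterol synthesis, 12 were called higher and 15 lower, and the median of 0.05 changed sign with library totals alone. TM7SF2, a sterol reductase, was called lower by 0.59 and overlaps VPS51 on the same strand, and HSD17B7 and FADS1 were called lower by 0.31 and 0.30 log2 units. In the glycolysis and hypoxia list (17 higher and 6 lower of 34), CA9, a carbonic anhydrase induced by hypoxia, fell from 1.6 and 1.72 to 0.84 and 0.943 CPM and ENO2 from 10.6 and 10.6 to 7.8 and 7.31 CPM. KDM3A, a histone demethylase of the same response, rose by 0.42 log2 units.

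Signalling and lineage lists held members in both directions. In the EGFR, MET and AXL list 9 of 26 were called higher and 5 lower, and the median of 0.04 changed sign with library totals alone. AXL, a receptor tyrosine kinase, fell from 1150 and 1130 to 794 and 803 CPM and MST1R, a receptor of the MET family, from 116 and 119 to 76.6 and 74.3 CPM, whereas AREG, an EGFR ligand, rose from 23.9 and 23.3 to 33.2 and 32.7 CPM. MST1R had a log2 fold change of -0.02 in the resistant line (edgeR adjusted p of the difference = 2.1e-08). Of 29 targets of TGF-beta and YAP, 14 were called higher and 8 lower, with LTBP2, a matrix protein that binds microfibrils, and SMAD6, an inhibitor of BMP signalling, called lower by 0.52 and 0.45 log2 units. The call of SMAD6 was lost without treated library 1 (-0.39) and without untreated library 1 (-0.48) or 2 (-0.41). Of 53 epithelial and classical subtype markers only 28 passed the filter, of which 12 were called higher and 4 lower (median 0.07). The members named by size of change rest on few reads and do not represent the list. MUC13 was counted with 29 and 15 reads without and 54 and 58 with the drug, MYO1A with 14 and 10 against 4 and 1, and MSLN with 38 and 32 against 14 and 10. The call of MYO1A was lost without either untreated library or treated library 2, and that of MSLN without untreated library 1 or treated library 2. Of 39 basal-like and mesenchymal genes 23 passed the filter, with 5 called higher and 3 lower. KRT15 and COL17A1 were called lower by 0.56 and 0.29 log2 units, with resistant log2 fold changes of 0.43 and 1.09. MMP14 had 12 and 23 against 2 and 7 reads, a call that was lost without untreated library 2 or treated library 1.

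In the transcription machinery 24 of 46 genes were called higher and 8 lower (52.2 and 17.4%), near the shares of coding genes of 10 CPM or over. CCNH, the cyclin of the CDK7 kinase that phosphorylates RNA polymerase II, fell from 45.4 and 45 to 24.1 and 24 CPM (-0.91 ± 0.038 SE, edgeR adjusted p = 1e-14), whereas its partner CDK7 rose from 39.4 and 38.3 to 49.2 and 50 CPM and MED13 rose by 0.36 log2 units. Among clock genes 7 of 23 were called higher and 8 lower. PER3 fell from 6.71 and 6.85 to 3.89 and 3.91 CPM, and by 0.83 log2 units in the resistant line, while CIART fell by 0.46 in parental and had a log2 fold change of 0.44 in resistant cells.

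**Figure D4:**
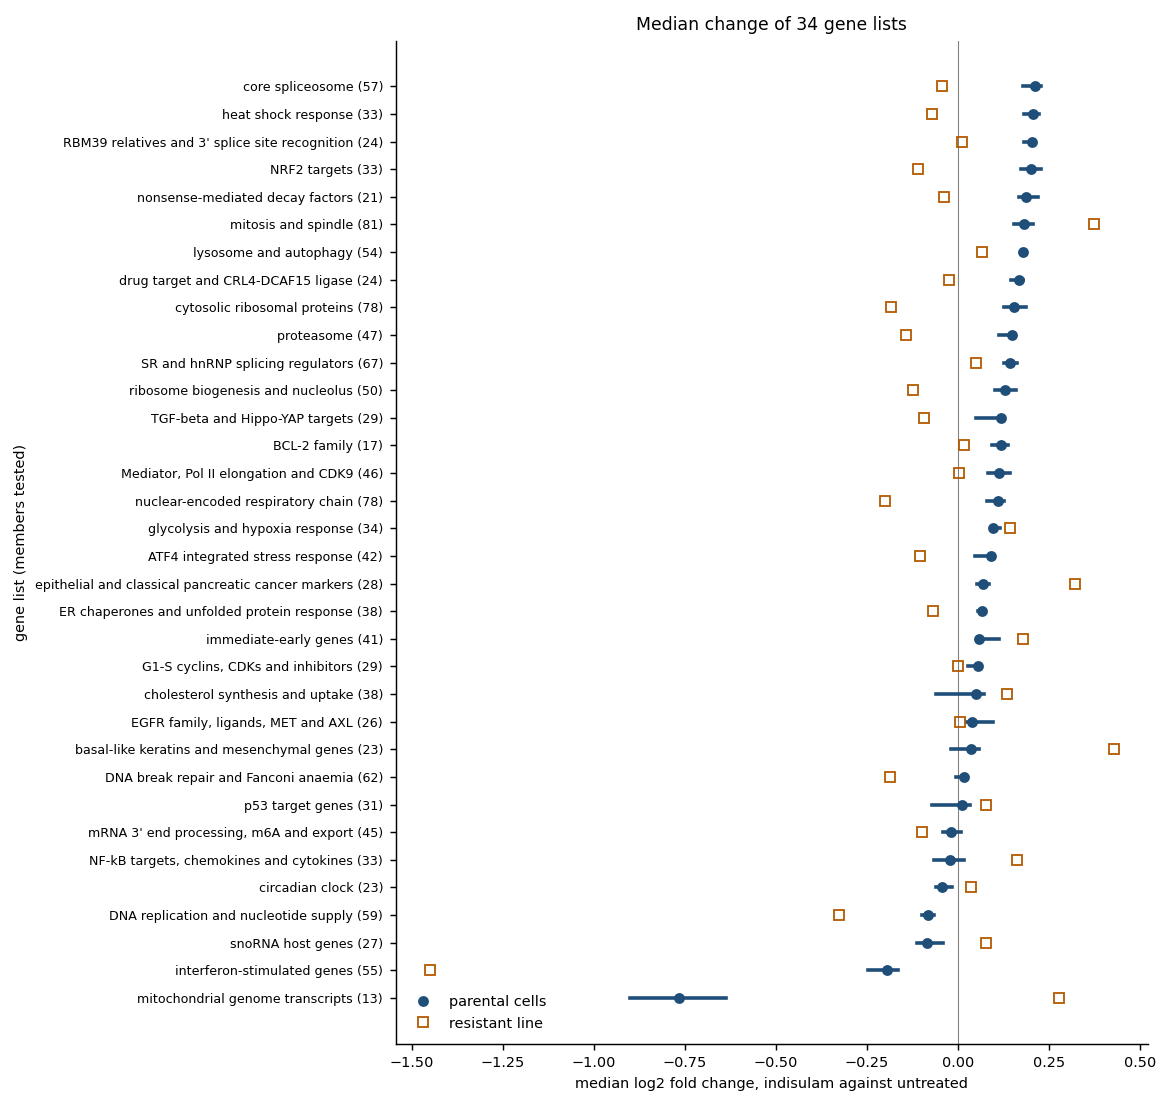
Median log2 fold change on indisulam of each of the 34 gene lists (number of members tested in brackets). Filled circles are parental cells, and open squares are the resistant line. Each bar runs from the lowest to the highest list median when every treated parental library is set against every untreated one. Splicing, chaperone and ribosomal lists lie above 0 in parental cells and mostly below or near 0 in the resistant line, mitosis lies above 0 in both, and replication and interferon genes lie below 0 in both.

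Of the gene biotypes, long noncoding RNAs had the lowest median. Of 2700 tested, 936 were called lower and 205 higher, 338 fell by more than 0.5 log2 units, and the median was -0.32 log2 units, against 0.06 for 12497 protein-coding genes. Antisense transcripts, divergent transcripts and LINC transcripts had medians of -0.34, -0.35 and -0.28. NEAT1, the scaffold of nuclear paraspeckles, went from 156 and 162 to 59.7 and 59 CPM (edgeR adjusted p = 0.0043), and in the resistant line it stood at 131 and 194 CPM without and 165 and 163 CPM with the drug. GALNT7-DT, which starts opposite GALNT7, fell from 13.3 and 12.7 to 3.56 and 3.22 CPM (-1.94 ± 0.0675 SE), MIR23AHG, a microRNA host, from 23.3 and 23.1 to 8.86 and 8.41 CPM, and CTC-338M12.4 from 11.4 and 11.4 to 4.62 and 4.44 CPM. Rises were smaller among lncRNAs averaging at least 3 in log2 CPM, the limit set for naming, with CASC8 at 0.72, LINC03061 at 0.64 and FAM131B-AS2 at 0.42 log2 units.

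Level and biotype were linked in this contrast. Genes with a mean under 1 CPM had a median of -0.26, those of 1 to 10 CPM -0.11 and those of 10 CPM or over 0.09, and 1906 of the lncRNAs were under 1 CPM. Within each level lncRNAs lay below protein-coding genes, at -0.39 against -0.20 under 1 CPM, -0.24 against -0.08 at 1 to 10 CPM and -0.11 against 0.09 at 10 CPM or over. lncRNAs had a resistant median of 0.14. The share of reads outside genes and the number of genes detected fell in the same libraries, as given above, and moved the other way in the resistant line. Their part in the fall of lncRNAs was not tested.

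Exon number and gene length spanned a narrower range of medians than level did. Among protein-coding genes of 10 CPM or over, the median was 0.10 for genes of 1 exon, 0.13 for 2 to 4 exons, 0.12 for 5 to 9, 0.07 for 10 to 19 and 0.04 for 20 or more. A fall by more than 0.5 log2 units was found for 0.962% of the first and 3.73% of the last of these classes, at 104 and 1554 genes. By gene span the median went from 0.07 under 5 kb to 0.14 at 200 kb or more. The exonic GC content, examined after the data had been seen, spanned a wider range, from 0.17 under 40% GC to -0.09 at 60% or more. In the resistant line the medians of the same GC classes lay between -0.06 and -0.004. Zinc finger genes on chromosome 19 had a median of 0.11 over 227 genes, against 0.03 for 251 on other chromosomes. Their median GC content was 42.6 against 45.9%, and their resistant medians were 0.108 and 0.004.

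**Figure D5:**
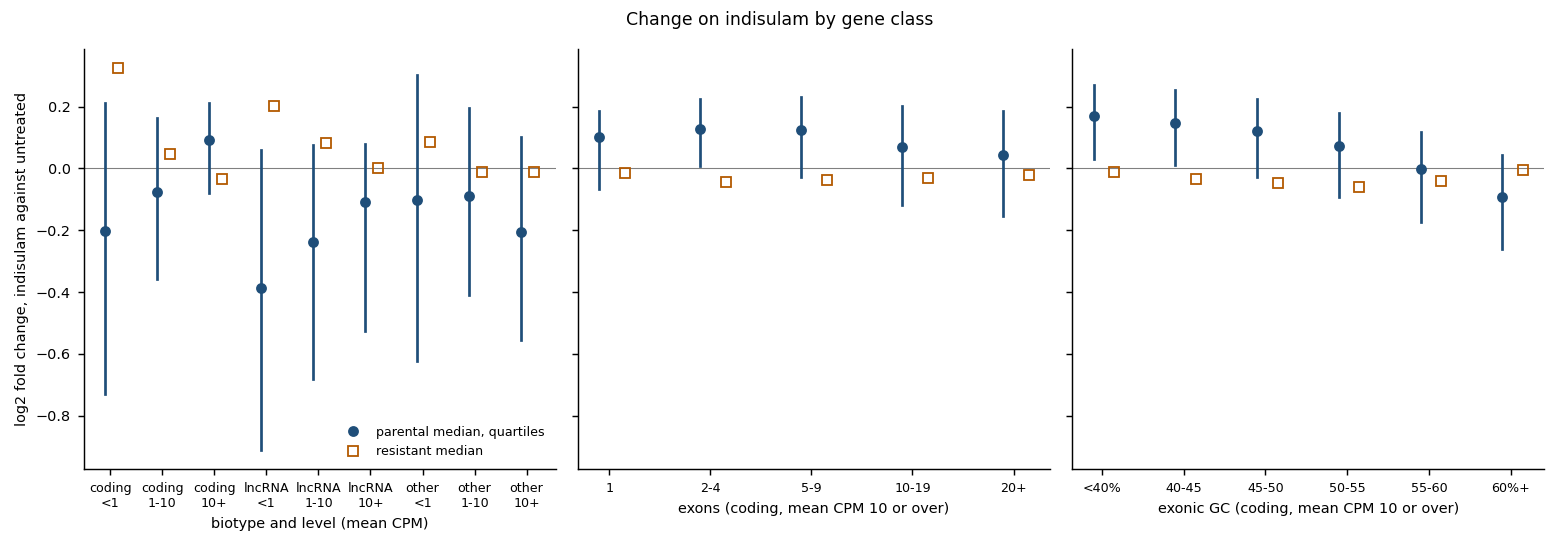
Median log2 fold change on indisulam (filled circles, with bars from the lower to the upper quartile of genes) in parental cells and in the resistant line (open squares), by biotype and mean level, by exon number and by exonic GC content. lncRNAs lie below protein-coding genes at each level in parental cells, and the parental median falls from 0.17 to -0.09 across GC classes.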

How the data were processed

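Polyadenylated RNA of Panc10.05 cells was sequenced in 8 libraries, and the 4 parental ones were compared here. The deposited counts are whole numbers of reads per gene, not normalized. The study's methods give trimming and alignment with HISAT2 to GRCh38, and the submitters' processing notes name HISAT2 2.2.1, Picard and HTSeq. The annotation release and strand setting are not given in the sources used here. Reads marked as duplicates, ambiguous or of low mapping quality were left out of the counts, so genes with near-identical copies or shared exons are undercounted. Reads in genes numbered 65266253 to 108002436 per library, and 37.878 to 44.937% of reads were left unassigned, marked duplicates included. The table held 60675 genes and 9 rows naming none, which were left out. Of the genes, 60419 matched GENCODE 44. A total of 197 of 218 genes nested on the opposite strand of a highly expressed gene had reads, against 12 of 76 on its own strand, so only overlaps on the same strand were treated as uncertain.

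Counts were fitted with edgeR 4.0.16 in R 4.3.3 (filterByExpr, TMM, robust quasi-likelihood, 4 group means over all 8 libraries, 16661 genes), with Benjamini-Hochberg adjustment over all genes. glmTreat tested changes beyond 0.5 log2 units. Levels are CPM scaled by TMM. The fit was first tested on simulated data. Exact permutation of 2 against 2 libraries cannot give a p below 0.333. Libraries of a group correlated at 0.9964 to 0.998 and differed by more than sampling noise, so each was kept. The numbers of libraries did not pair them, so no pairing was used.

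Gene lists and members were chosen with earlier results of these data known. The naming rule took RBM39 and its complex, the 12 largest coding and 4 largest lncRNA rises and falls, each called, without overlap and averaging at least 3 in log2 CPM over the 8 libraries, and 3 to 8 members per list (those past 0.5 log2 units, or the largest among those called). It gave 140 genes, and STAT2, IRF9 and MX1 were among those added after their values were seen. Some of the genes so named are not reported here. Where an alternative is called a GC correction, a smooth curve of exonic GC content per library entered as an offset. The alternatives were other scalings and filters, DESeq2 1.42.0, this correction, a replicate block, thinning to equal depth, only parental libraries, a stricter threshold and leaving out each parental library.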

Additional observations from a re-analysis of the deposited data

Results flagged for a closer look

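The share of reads from the mitochondrial genome fell in parental cells on indisulam and was higher on the drug in the resistant line, and the 2 changes differed by 2.29 percentage points. For reads outside genes they differed by 2.52 percentage points. Several median changes were of one sign in the parental libraries and of the other in the resistant ones. Over the genes of each such group, the median of the per-gene differences, resistant minus parental in log2 units, was -0.177 for the target and its ligase, -0.243 for the core spliceosome, -0.211 for nonsense-mediated decay, -0.343 for ribosomal proteins, -0.258 for ribosome biogenesis, -0.272 for the proteasome, -0.296 for nuclear respiratory chain genes, -0.302 for the heat shock response, -0.26 for NRF2 targets, -0.23 for the ATF4 response, -0.13 for the endoplasmic reticulum, -0.096 for TGF-beta and YAP targets and -0.051 for protein-coding genes. It was 0.166 for snoRNA host genes, 0.907 for mitochondrial transcripts, 0.494 for lncRNAs and 0.201 for other biotypes. These differences of shares and medians were not tested.

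For single genes the difference between the drug responses of the lines (log2 units, resistant minus parental) was tested in the edgeR fit, and the named genes that follow passed at an adjusted p below 0.05, as did 50.1% of all genes tested. Genes of the drug's target and its ligase had higher resistant changes for DCAF15 (0.19), and lower ones for RBM39 (-0.18), DDB1 (-0.19), CAND1 (-0.25), NAE1 (-0.11) and COPS4 (-0.31). The largest rises among protein-coding genes had higher resistant changes for ZNF850 (0.50), and lower ones for TOMM20 (-0.52), ZNF227 (-0.36), GALK2 (-0.53), ALDH1A3 (-1.27), EYA3 (-0.50), ALPK1 (-0.33), ZNF512 (-0.48), NPAS2 (-1.15) and RRAGB (-0.72). The largest falls among protein-coding genes had higher resistant changes for PABPC1L (1.23), TMEM60 (1.17), ZNF251 (0.69), SFXN2 (0.40), ATG16L2 (1.45), MICALL2 (1.29), PILRB (1.19), ACBD4 (1.27), TMEM80 (1.06) and RAMP1 (0.25), and lower ones for ABCC3 (-0.34). Long noncoding RNAs had higher resistant changes for LINC03061 (0.52), GALNT7-DT (1.12), MIR23AHG (1.28), NEAT1 (1.44) and CTC-338M12.4 (1.30), and lower ones for CASC8 (-0.29). Genes of splicing, nonsense-mediated decay and mRNA export had higher resistant changes for U2AF1 (0.72), CLK2 (0.69), SRSF5 (0.67), DHX34 (0.17), DDX39B (0.79), PABPN1 (0.73) and MAT2A (0.36), and lower ones for SF1 (-0.29), SMNDC1 (-0.28), CDC5L (-0.37), CRNKL1 (-0.58) and HNRNPLL (-0.41). SnoRNA host genes, ribosomal proteins and ribosome biogenesis had higher resistant changes for SNHG3 (0.73), SNHG12 (0.81), SNHG4 (1.01), SNHG19 (0.76) and RPS10 (1.04), and lower ones for RPL5 (-0.37), DDX10 (-0.22) and POLR1E (-0.43). Genes of replication, mitosis, the G1-S step and DNA repair had higher resistant changes for TYMS (0.25), CENPK (0.58), MYBL2 (0.60), AURKA (0.15), CDKN1B (0.18) and DMC1 (1.47), and lower ones for CKS2 (-0.27).

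P53, BCL-2, ATF4, endoplasmic reticulum, heat shock, NRF2 and proteasome genes had higher resistant changes for FDXR (0.58), DDB2 (0.25), ASNS (1.08), GDF15 (1.29), DERL3 (0.47), HSPB8 (0.58), HMOX1 (0.65), PSMA2 (1.23) and PSMG4 (0.34), and lower ones for VDAC2 (-0.24), SLC3A2 (-0.30), SEL1L (-0.14), EDEM3 (-0.31), CHORDC1 (-0.33), HSPA4 (-0.39), GCLC (-0.37) and PSMD6 (-0.51). Genes of the respiratory chain and the mitochondrial genome had higher resistant changes for ATP5MC1 (0.15), MT-ATP8 (1.22), MT-ATP6 (1.24) and MT-CO3 (1.08), and lower ones for NDUFS4 (-0.41). Lipid, sugar and lysosomal genes had higher resistant changes for TM7SF2 (0.86), HSD17B7 (0.27), CA9 (1.5) and ENO2 (1.06). Interferon-stimulated genes had lower resistant changes for RSAD2 (-1.81), HERC6 (-1.11), OAS2 (-3.08), IFIT1 (-1.23), STAT2 (-0.27) and MX1 (-3.33). NF-kB, immediate-early, growth factor and TGF-beta genes had higher resistant changes for NFKBIZ (0.90), FOS (0.21), AXL (0.31) and MST1R (0.62), and lower ones for BTG1 (-0.17) and AREG (-0.47). Lineage markers had higher resistant changes for MYO1A (3.76), MSLN (1.84), MMP14 (2.47), KRT15 (0.98) and COL17A1 (1.39). Clock and transcription genes had higher resistant changes for CIART (0.90) and CCNH (0.51), and lower ones for MED13 (-0.16).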

How the results depend on the processing

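Of 144 named genes, 126 kept their call and direction in every alternative that could be run for them, out of 18. DCAF15 was the single named gene whose sign reversed, from -0.06 to 0.10 log2 units with the GC correction, with or without the replicate block, and it was not called in the main test. With a mean CPM of at least 10, fewer genes were tested, 6103 were called, 2995 of them higher, 324 changed by more than 0.5 log2 units (24 higher, 300 lower), and the lines differed at 5340. With a mean CPM of at least 1, 61 genes rose by more than 0.5. At an adjusted p of 0.01, 690 changed by more than 0.5, 596 of them lower. Without each parental library in turn, with the lone library left assumed to vary like the other groups, 8159 to 8773 genes were called, 4228 to 4555 higher and 3649 to 4218 lower. In these fits 748 to 944 genes changed by more than 0.5, 97 to 122 higher and 651 to 822 lower, and 7235 to 8002 differed between the lines. DESeq2 called 7984 genes. Correlations of same-numbered libraries lay between -0.058 and 0.0272, and the replicate block, with 9537 called and 972 changed by more than 0.5, moved no count by over 1.5 times. Library totals alone gave 42.0% of calls higher and upper quartile scaling 44.8%, against 54.3%, and the first turned the sign of 7 of 34 list medians. A mean CPM of at least 10 turned 8 of them, the endoplasmic reticulum and epithelial lists included, and one of at least 1 turned 6. The interaction settings and the classes by GC content and level were chosen after the data were seen.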
